A study of Homo sapiens with 4 samples.

Results

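CHD5 peaks that came close to the Polycomb mark H3K27me3 without touching it numbered 1729, out of 32250 peaks on chromosomes 1 to 22 and 32543 peaks in all. A peak was counted as bordering when it shared no base with an H3K27me3 region and its nearest region lay 1 to 10000 bp away, where 1 is the very next base. The bordering peaks made up 5.36% of the autosomal CHD5 list (Wilson 95% interval 5.12% to 5.61%). The members were chosen by the measured positions of the peaks in both lists, so this share and the distances are fixed by the rule and are given as a description.

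The profiles came from SH-SY5Y, a human neuroblastoma line that takes on neuron-like features in retinoic acid, and all cells had received 10 uM of it for 8 days. CHD5 was captured on streptavidin beads from cells that expressed a construct labelled FBio-CHD5, and H3K27me3 was precipitated with an antibody from the same FBio-CHD5 expressing line. The other two libraries, a streptavidin pull-down from FBio-Ctrl expressing cells and an input from FBio-CHD5 expressing cells, had no list used here, and whether either served as background for the peak calls is not given in the sources used here. Each group is 1 library, so no value has a replicate error, no test was made, and intervals cover counting error only and treat each peak as independent. Read counts are not part of the lists, and the depth is unknown. How the tagged protein was driven, and its level beside the cells' own CHD5, is not given in the sources used here.

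CHD5 is a chromodomain helicase that slides or evicts nucleosomes, belongs to the family of NuRD remodellers and is expressed mainly in the nervous system. Its gene lies on the short arm of chromosome 1, in a segment that neuroblastomas often lose. H3K27me3 is laid down by Polycomb repressive complex PRC2, which can spread the mark from nucleation sites into broad domains over silent developmental genes. The edge of such a domain is the place where marked and unmarked chromatin meet.

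Neighbouring H3K27me3 regions were taken as 1 domain where the gap between them was at most 3 kb, which gave 33793 domains on the autosomes. Most bordering peaks stood beside small patches of the mark. The nearest domain was under 1 kb wide for 895 of the 1729 peaks, or 51.8%, and for 785 of them, 45.4% of all, it was a single H3K27me3 region. Another 483 peaks were beside domains of 1 to 5 kb and 250 beside domains of 5 to 20 kb. Domains of 20 to 50 kb were nearest to 65 peaks and those of 50 kb and over to 36. Together the domains of at least 20 kb accounted for 5.84% of bordering peaks (4.83% to 7.05%). The sequence at hand was divided in much the same way. Domains under 1 kb had 49.2% of the sequence within 10 kb outside an edge and 53.4% of the peaks in it, and those of 1 to 5 kb had 28.5% and 28.1%. A domain of at least 5 kb was within 10 kb of 410 peaks, or 23.7%, whether or not it was the nearest.

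Nearly all bordering peaks lay outside a domain edge. They numbered 1676, of which 246, or 14.7%, had a different domain within 10 kb on either side. The domain was on the side of lower coordinates for 831 of the 1676, or 49.6%. The remaining 53 bordering peaks, 3.07% of the 1729 (2.35% to 3.99%), sat in a gap inside a domain. Of those 53, 12 were in domains of 1 to 5 kb, 28 in domains of 5 to 20 kb, 9 in domains of 20 to 50 kb and 4 in domains of 50 kb and over.

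The median bordering peak was 3705 bp from its nearest region, with quartiles of 1379 and 6879 bp. Peaks were most frequent in the first kilobase, which held 328 of them, or 19.0%. Per 100 bp of distance there were 28.0 peaks from 1 to 250 bp, 33.2 from 251 to 500 bp and 35.0 from 501 to 1000 bp. There were 17.2 per 100 bp from 2001 to 4000 bp and 13.1 from 8001 to 10000 bp, so the number was lower farther out. There is also more sequence close to a region than far from one, and the density per base given further on takes this into account.

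The kind of nearest domain changed with distance, and so did the sequence at hand outside the edges. Domains of 5 to 20 kb had 15.0 of 67.5 Mb in the first kilobase and 5.07 of 41.7 Mb from 8001 to 10000 bp. Those of 20 to 50 kb had 3.26 and 0.762 Mb and the widest 0.807 and 0.265 Mb. The change was therefore not one of the peaks alone. From 1 to 250 bp, 31 of 70 peaks, or 44.3%, had a domain of at least 5 kb as the nearest, and 14 had a single region. From 8001 to 10000 bp, 41 of 262 peaks, or 15.6%, had a domain of at least 5 kb, and 137 had a single region. Of the 70 peaks from 1 to 250 bp, 23 lay in gaps, and from 8001 to 10000 bp none did. Most gap peaks were in domains of at least 5 kb. The sequence given above leaves gaps out, so the peak shares cannot be read directly against it. Gap peaks can be no farther than the gap allows, and their largest distance was 824 bp.

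**Figure D1:**
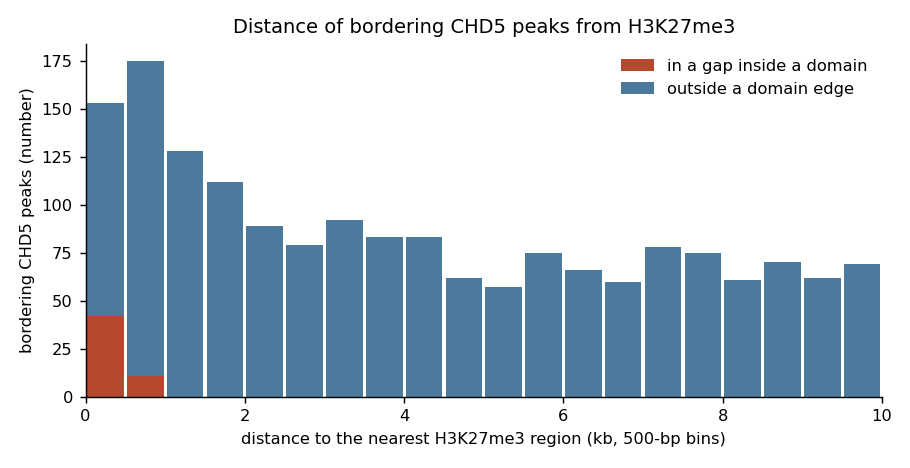
Number of bordering CHD5 peaks (vertical axis) in 500-bp bins of distance to the nearest H3K27me3 region (horizontal axis, kb), split into peaks in a gap inside a domain and peaks outside a domain edge. The bins are fullest in the first kilobase, with 153 and 175 peaks, and all 53 gap peaks lie there.

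At the near limit, the closest bordering peak was chr14:24801192-24802087, 2 bp from a domain of 3253 bp. The next were chr18:47195151-47195904 at 15 bp and chr3:159942632-159944445 at 17 bp. On the other side of the limit, 3 bp were shared with H3K27me3 by each of the peaks chr17:7962996-7964479 and chr7:75204622-75206050, and 7 bp by chr16:46862239-46864164. At the far limit, the last peaks included lay 9992, 9994 and 9994 bp away, and the first peaks left out lay 10006, 10013 and 10018 bp away. The values run on across both limits without a break.

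CHD5 covered less of the sequence near H3K27me3 than of the sequence farther off. Within 10 kb outside domain edges 0.846% of bases lay in CHD5 peaks, parts of overlapping peaks included, and in the gaps inside domains 0.407% did. Inside the H3K27me3 regions themselves the coverage was 0.661%, and beyond 10 kb it was 2.69%. From 10 to 50 kb outside the edges it was 1.88%. Coverage was 0.690% in the first kilobase and 0.799% from 1001 to 2000 bp, then 0.787% and 0.751% in the next kilobases. From 4001 bp on it was higher in each bin farther out, at 0.826% up to 5000 bp, 1.20% from 8001 to 10000 bp and 2.30% from 40001 to 50000 bp. Sequence in which reads cannot be placed was not removed from these bases, and its part in the result was not tested.

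The widest domains had the highest density of peaks along their edges. Outside domains of 50 kb and over there were 9.57 bordering peaks per Mb of sequence within 10 kb (exact Poisson 95% interval 6.55 to 13.5, from 32 peaks). Outside domains of 20 to 50 kb there were 4.36 per Mb (3.29 to 5.66), and outside those of 5 to 20 kb 3.24 (2.83 to 3.69). The values were 4.34 (3.96 to 4.75) for domains of 1 to 5 kb and 4.78 (4.48 to 5.11) for domains under 1 kb. The density at the widest domains lay between 8.39 and 10.3 per Mb when each chromosome was left out in turn, with the lowest value without chromosome 14. Peaks that share a domain are not independent, so these intervals can be too narrow.

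From 10 to 50 kb outside the edges the densities of the 5 classes lay closer together. They were 12.9 peaks per Mb (9.11 to 17.8, from 37 peaks) for domains of 50 kb and over, a value with an interval of 9.70 to 14.7 for 20 to 50 kb (94 peaks in 7.83 Mb) and 10.6 (9.63 to 11.7) for 5 to 20 kb. For 1 to 5 kb the density was 9.55 (8.95 to 10.2) and under 1 kb it was 9.80 (9.45 to 10.2), within the interval of the widest class. CHD5 covered 2.06% of the sequence within 10 kb of the widest domains and 3.25% from 10 to 50 kb, a near-to-far ratio of 0.635. The same ratio was 0.480 for domains under 1 kb, 0.478 for 1 to 5 kb, 0.304 for 5 to 20 kb and 0.356 for 20 to 50 kb. In each of the 5 classes the 10 kb next to the domain, taken whole, was less covered than the sequence from 10 to 50 kb. The ratio was lowest at domains of 5 to 20 kb and carries no interval. At the widest domains some finer bins went the other way, with 3.93% from 6001 to 8000 bp against 2.41% from 10001 to 15000 bp. The near and far density intervals of that class overlapped, so a lower density next to these domains is not established.

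**Figure D2:**
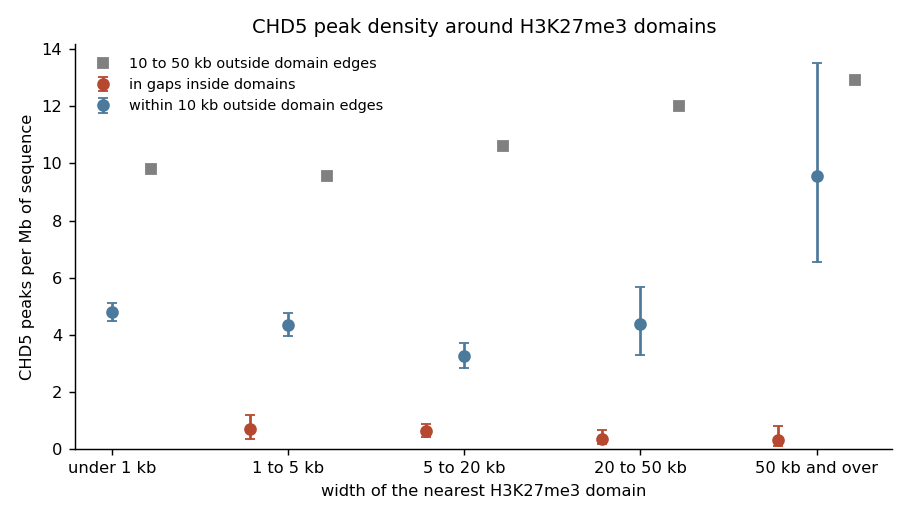
CHD5 peaks per Mb (vertical axis) by width of the nearest H3K27me3 domain (horizontal axis), in gaps inside domains, within 10 kb outside domain edges and from 10 to 50 kb outside them; bars are exact Poisson 95% intervals and the squares carry none. Edge densities lie between 3.24 and 4.78 per Mb up to 50 kb of domain width and reach 9.57 at wider domains, while gap densities stay below 0.7 per Mb.

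Gaps inside domains held few CHD5 peaks, at 0.517 per Mb (0.387 to 0.676) over all domain widths. The density was 0.677 per Mb in domains of 1 to 5 kb and 0.314 per Mb in those of 50 kb and over, with overlapping intervals. A whole peak can only fit in a gap longer than itself, and the rule places a peak that reaches past the gap among the overlapping ones. The gaps that held a bordering peak were 1561 to 2988 bp long with a median of 2466 bp, and the peak filled a median of 52.7% of the gap.

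By gap length, the share of gaps with a peak was 0 in the classes up to 1500 bp and higher in each longer class from there to 3 kb. No peak lay in the 160744 gaps of 1 to 750 bp, the 12979 gaps of 751 to 1000 bp or the 15092 gaps of 1001 to 1500 bp. A count of 0, taken as fewer than 3 gaps, allows a share of up to 0.0199% in the last of these, where the Wilson upper limit is 0.0254%. Of 8229 gaps of 1501 to 2000 bp, 11 did, or 0.134% (0.0747% to 0.239%), and of 5252 gaps of 2001 to 2500 bp, 18 did, or 0.343% (0.217% to 0.541%). Of 3705 gaps of 2501 to 3000 bp, 24 did, or 0.648% (0.436% to 0.962%). The spaces between domains carried on from there, with 0.843% (0.624% to 1.14%) at 3001 to 4000 bp, 0.991% at 4001 to 6000 bp and 0.920% at 6001 to 10000 bp. Spaces of 10001 to 20000 bp held a peak in 1.98% (1.66% to 2.35%) of cases. No step was seen at 3 kb, the length at which gaps stop counting as part of a domain.

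Scores of peaks in gaps were compared with those of peaks at edges. The score is a number per peak that the authors' peak caller gave, with a smallest listed value of 50, and it was compared only within the CHD5 list. The 53 gap peaks had a median score of 81.5 (quartiles 62.6 and 121) and the 1676 edge peaks one of 102 (70.7 and 174). The intervals of these medians overlapped, at 70.7 to 102 and 97.9 to 108. In domains of 20 to 50 kb gap peaks had the higher median, 91.5 against 79.4, and in those of 50 kb and over also, 136 against 128, from 9 and 4 gap peaks. Gap peaks were narrower, with a median width of 1211 bp against 1486.5 bp, and a gap peak cannot be wider than its gap. Among edge peaks no wider than 2311 bp, the width of the widest gap peak, the median width was 1332 bp and the median score 90.5. How far the gap length accounts for the width was not tested.

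The highest score in a gap was 314.94, at chr16:1321295-1322917, in a gap of 2445 bp within a domain of 90.0 kb built from 140 regions. Its flanking regions were 652 bp away on the lower side and 172 bp on the higher side, and the nearest other CHD5 peak was 79.2 kb away. Next came chr6:27469782-27471599 with a score of 185.98, 67 bp from a region in a domain of 23982 bp. The peak chr1:223536065-223537604 scored 177.28 and lay 62 bp from an H3K27me3 region whose own score was 2781.31, in a domain of 21.7 kb. Among the regions nearest to each of these 5 gap peaks, that region had the highest score. The peaks chr2:118475087-118476492 and chr17:77513537-77514993 followed with 167.67 and 153.33, in domains of 16.8 and 14.5 kb.

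Bordering peaks as a whole had a lower median score than other autosomal CHD5 peaks. Their median score was 102 (quartiles 70.4 and 171) and that of the 30521 others was 118 (74.9 and 220), a difference of -16.9. Of the bordering peaks 17.4% (15.6% to 19.2%) were in the highest quartile of autosomal scores, against 25.4% of the others. In the lowest quartile were 29.8% (27.7% to 32.0%) of bordering peaks and 24.7% of the others. Among the 100 highest autosomal scores 4 belonged to bordering peaks, a share near the 5.36% of the whole list. Among the 1000 highest 29 did, or 2.90% (2.03% to 4.13%), which was below it.

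From the bordering peaks outward the median score was higher in each class of distance. It was 102 at bordering peaks and 106 at the 684 overlapping autosomal peaks. The median was 112 at peaks 10 to 50 kb away, 118 at 50 to 200 kb and 123 beyond 200 kb. The medians of bordering and overlapping peaks had overlapping intervals, 97.5 to 107 and 97.2 to 113. Within the 10 kb, distance and score had a Spearman rho of 0.0424 over the 1729 peaks, which share a library and in part a domain. Among the 8 distance bins the lowest median, 81.3, was at 251 to 500 bp, where 19 of 83 peaks lay in gaps.

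Bordering peaks were also narrower, and the score difference went with width. Their median width was 1469 bp (quartiles 1120 and 2037 bp) against 1662 bp (1208 and 2387 bp) for the others. By the rule, a peak wide enough to reach a region counts as overlapping, and overlapping peaks had a median of 1726 bp. The median was 1600 bp at 10 to 50 kb, 1633 bp at 50 to 200 kb and 1703 bp beyond 200 kb. What part the rule has in the width difference was not tested. Score and width had a Spearman rho of 0.689 among bordering peaks and 0.752 among the others. Among peaks between the lower and the upper quartile of width the score difference was -2.59 (-8.49 to 2.88, from the interval of the bordering median), a range that includes 0. Against peaks 10 to 50 kb away it was -10.1 (-14.1 to -5.04).

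The scores were also split by quartiles of width. In the widest quartile the 299 bordering peaks had a median of 277 (248 to 309) and the others 309 (304 to 315). In the third quartile the medians were 151 (140.5 to 160) and 159 (157 to 162). In the narrowest quartile, which held 32.5% of bordering peaks, they were 69.7 (67.9 to 71.5) and 68.6 (68.1 to 69.1), and in the second 105 (98.5 to 111) and 101 (99.8 to 102). The bordering median minus that of the others was 1.105 in the narrowest quartile, 4.06 in the second, -7.975 in the third and -31.59 in the widest. The intervals of bordering and other peaks overlapped in each of these width classes. Such overlap does not exclude a difference, and an interval of the difference was not computed.

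**Figure D3:**
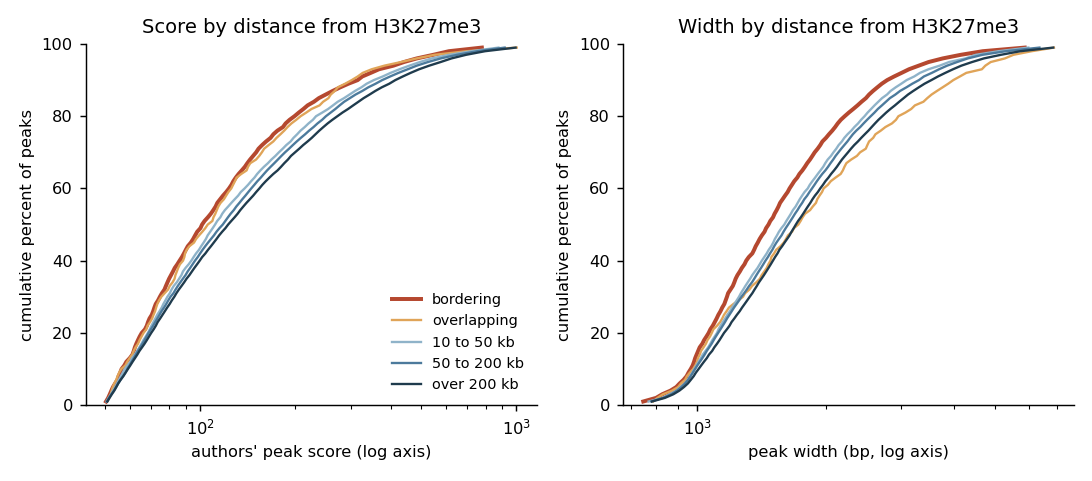
Cumulative percent of autosomal CHD5 peaks (vertical axes) by the authors' score (left) and by width in bp (right), both on log axes, drawn from percentiles 1 to 99 for bordering peaks, overlapping peaks and 3 classes of greater distance. Bordering peaks have a median score of 102 against 123 beyond 200 kb, and the lowest median width, 1469 bp.

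The median score of bordering peaks by domain class had intervals that mostly overlapped. The medians were 128 (95.8 to 212) at the 36 peaks beside domains of 50 kb and over and 79.9 (74.3 to 93.5) at the 65 peaks beside domains of 20 to 50 kb. They were 99.8 (87.0 to 110) for 5 to 20 kb, 105 (95.3 to 113) for 1 to 5 kb and 102 (96.6 to 110) for under 1 kb. Widths went along only in part, with 1711 bp at the widest domains, 1506 bp at 20 to 50 kb and 1476 bp at the smallest. The interval at 20 to 50 kb overlapped that at 5 to 20 kb and lay below the other three classes, while the interval at 50 kb and over overlapped all 3 classes up to 20 kb.

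H3K27me3 next to a bordering peak had a median score at or above that of domain edges in general. The H3K27me3 score was compared within its own list, with the region nearest to each edge peak set against the outermost regions of all autosomal domains of that class. The medians were 83.2 (69.2 to 122) and 75.3 at domains of 50 kb and over, 86.9 (73.6 to 128) and 73.0 at 20 to 50 kb, and 74.7 (69.1 to 80.6) and 69.3 at 5 to 20 kb. At 1 to 5 kb they were 74.2 (71.2 to 80.2) and 67.1, and under 1 kb 62.0 (60.8 to 63.7) and 61.0. The first value was the higher in each class, and its interval lay wholly above the second value at 20 to 50 kb and at 1 to 5 kb.

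The bordering peaks reached 1456 domains as their nearest, 4.31% of the autosomal ones. Of domains of 50 kb and over 28 of 404 had one, or 6.93% (4.84% to 9.83%). The share was 3.62% (2.81% to 4.64%) at 20 to 50 kb, 2.95% (2.59% to 3.36%) at 5 to 20 kb, 3.97% at 1 to 5 kb and 5.26% (4.91% to 5.64%) under 1 kb. Most bordered domains, 1231, had a single such peak, 186 had 2 and 39 had 3 or more. Peaks lay outside both edges of 104 domains, or 0.308% of all, and 60 of these were under 1 kb wide.

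Of the domains with a bordering peak, a larger share was also overlapped by CHD5 than of all domains of the same width. Bordered domains were picked for a CHD5 peak within 10 kb, and 48.3% of all autosomal CHD5 peaks had another within 10 kb. The part of this spacing in the shares was not tested, and they are given as a description. Of the 395 bordered domains of 1 to 5 kb, 63 were also overlapped, or 15.9% (12.7% to 19.9%), against 1.77% of all domains of that width. Of the 221 bordered domains of 5 to 20 kb, 37 were, or 16.7% (12.4% to 22.2%), against 2.41%. Under 1 kb it was 54 of 753, or 7.17% (5.54% to 9.24%), against 0.887%. At 20 to 50 kb the shares were 11.9% (5.87% to 22.5%) and 3.68%, and at 50 kb and over 21.4% (10.2% to 39.5%) and 12.4%, from 7 and 6 domains. For the widest domains the interval took in the share of all such domains, so a difference was not detectable there.

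The domain with the most bordering peaks shows how they can gather around 1 domain. On chromosome 14 a domain of 61.0 kb, from 21085744 to 21146776, had 2 bordering peaks on its lower side and 3 on its higher side, 2193 to 6486 bp from the mark. They scored 68.35 to 277.09, and no CHD5 peak overlapped the domain. Its strongest H3K27me3 region had a score of 1679.65, and CHD5 stood at both of its ends.

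The other domain with 5 bordering peaks was a single region of 172 bp on chromosome 22, from 28433612 to 28433783, with a score of 53.07, close to the listed minimum. It had 4 peaks on the lower side and 1 on the higher side, with scores of 70.84 to 474.98. Another 5 domains had 4 bordering peaks each. They were 98 bp on chromosome 10 from 51076539, 302 bp on chromosome 14 from 65445337, 9769 bp on chromosome 20 from 5598459, 188 bp on chromosome 22 from 47127275 and 509 bp on chromosome 3 from 6903458. Of these 7 domains 5 were under 1 kb wide, that is, small patches with several CHD5 peaks around them. Their strongest regions scored 53.07 to 98.51, in a list whose smallest H3K27me3 score is 50. Beside all domains under 1 kb the region nearest to a bordering peak had a median score of 62.0, against 85.4 for all autosomal regions. Over all regions of domains under 1 kb the median was 61.0, so a low score is a trait of that class. Of the 5 small patches, the one on chromosome 10 scored 98.51, above the median of all autosomal regions, and the others scored below it. All are calls from 1 library.

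The highest score of all bordering peaks was 3100, the largest value in the list, which 10 autosomal peaks shared. It belonged to chr16:89250504-89254831, which lay in a space between 2 patches of the mark, 215 bp from a domain of 1601 bp on the lower side and 1431 bp from the next region on the higher side. With its width of 4328 bp it was too wide for any gap counted as inside a domain. The mark stood close on both of its sides.

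The next score was 1430.88, at the peak chr20:20334116-20339190, 2914 bp from a domain of 11.5 kb. The peak chr2:853570-858861 scored 1419.65, 5262 bp from a domain of 482 bp, and chr16:88794167-88798842 scored 1409.33, 3852 bp from a single region of 369 bp. Then came chr5:1069634-1073773 with 1185.26 at 7184 bp, chr3:58730416-58736626 with 1175.62 at 9451 bp and chr7:410046-412131 with 1170.52 at 8981 bp. The last 3 of the highest 10 were chr4:108131485-108137397 with 1122.00 at 916 bp, chr14:93105457-93107634 with 1049.55 at 2940 bp and chr12:17032484-17036548 with 1035.78 at 4523 bp. Of these 10 peaks, 8 had a domain under 5 kb as the nearest and all 10 lay outside an edge, close to the 79.7% and 96.9% of all bordering peaks.

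The 2 highest scores at each domain width came mostly from these same peaks. Beside domains of 5 to 20 kb the second was chr3:124507659-124509660, with 975.62 at 6516 bp. Beside domains of 20 to 50 kb the peak on chromosome 14 named above stood 2940 bp below a domain of 22.7 kb and 3710 bp above another H3K27me3 region. It was followed by chr6:27654629-27656697, with 400.76 at 4505 bp from a domain of 27.2 kb.

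Beside the widest domains the scores were lower at the top. The peak chr12:54409497-54412948 scored 525.33 and lay 2764 bp above a domain of 113 kb with 129 regions, which ran from 54293801 to 54406733. The peak chr12:54412976-54414343, with 132.64, followed 28 bp after it, and chr12:54393270-54394446, with 50.16, sat in a gap of the same domain. That domain had CHD5 outside and inside its upper end. The peak chr21:16456280-16458266 scored 372.70, in the space between 2 wide domains, 7408 bp below one of 59.1 kb and 10371 bp above the region on its other side.

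**Figure D4:**
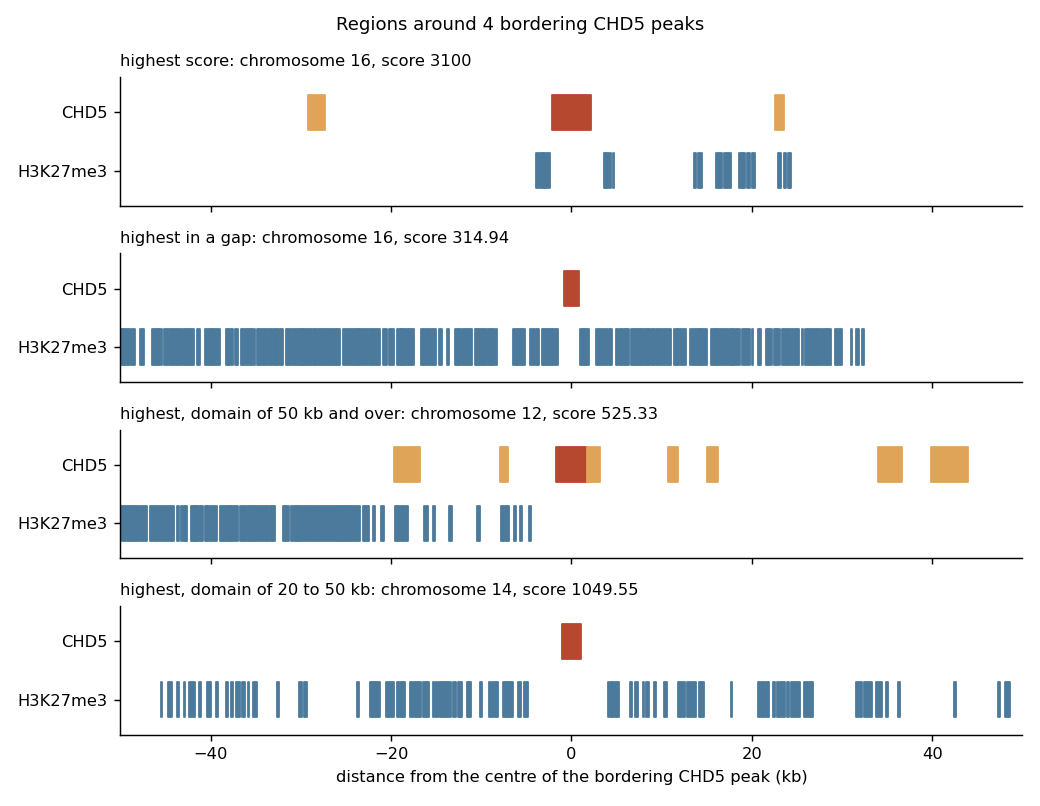
CHD5 peaks (upper row of each panel, the named bordering peak in dark red and others in orange) and H3K27me3 regions (lower row, blue) by distance in kb from the centre of 4 bordering peaks, 50 kb to either side. The peak of score 3100 stands between 2 small patches, that of 314.94 in a gap of a dense domain, that of 525.33 just past the end of a domain with more CHD5 beyond it, and that of 1049.55 between 2 domains with no other CHD5 peak in view.

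Bordering peaks lay farther from other CHD5 peaks than peaks elsewhere did. The nearest other CHD5 peak was a median of 19.1 kb away, against 10.6 kb for the other autosomal peaks. Within 10 kb another CHD5 peak was found for 684 bordering peaks, or 39.6% (37.3% to 41.9%), against 48.8% (48.2% to 49.3%) of the others. The share was 41.1% at overlapping peaks, 44.3% at 10 to 50 kb, 48.0% at 50 to 200 kb and 51.1% beyond 200 kb. Beyond the bordering peaks it was higher in each class farther from the mark, while the intervals of bordering and overlapping peaks overlapped. Gap peaks had a median of 38.7 kb and 16 of 53, or 30.2%, had a neighbour within 10 kb.

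The nearest other CHD5 peak was itself bordering for 635 peaks, or 36.7%, and overlapped H3K27me3 for 250, or 14.5%. Of the whole autosomal list 5.36% were bordering, and 684 of 32250 peaks were overlapping. The rule itself favours such neighbours, since a peak close to a bordering peak is often close to the same region. These shares are therefore a description and not a measure of clustering. For the 668 edge peaks with a neighbour within 10 kb, that neighbour lay on the side away from the nearest domain in 306 cases, or 45.8% (42.1% to 49.6%). The rest had it toward the domain, which includes places across a small one. In the order along the chromosome 859 bordering peaks, or 49.7%, came directly before or after another bordering peak, which the rule favours in the same way. The longest such runs held 6 peaks and there were 2 of them. One spanned 271 kb of chromosome 16 from 88716719 to 88988016, beside 5 domains, and its scores ranged from 51.73 to 1409.33.

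By chromosome, the share of CHD5 peaks that bordered H3K27me3 ran from 3.06% to 12.1%. Chromosome 19 was highest, with 93 of 766 peaks, or 12.1% (10.0% to 14.6%), followed by chromosome 22 with 41 of 438, or 9.36% (6.98% to 12.5%), and chromosome 16 with 76 of 993, or 7.65%. Chromosome 18 was lowest with 21 of 687, or 3.06% (2.01% to 4.63%), followed by chromosome 1 with 140 of 3507, or 3.99%. The interval of chromosome 19 lay above those of chromosomes 1 and 18.

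The sequence within 10 kb of the mark differs between chromosomes, so the density was also taken per Mb of it. Chromosome 17 then stood highest with 8.33 bordering peaks per Mb, ahead of chromosome 22 with 7.07, chromosome 19 with 6.72 and chromosome 10 with 6.52. By share chromosome 17 had 110 of 1619 peaks, or 6.79% (5.67% to 8.13%). The density is not adjusted for how many CHD5 peaks a chromosome has. Chromosome 18 with 1.63 and chromosome 21 with 1.69 were lowest. On chromosome 19 such sequence made up 23.5% of the span and on chromosome 10 it made up 10.1%. The makeup differed too: 1 of the 41 peaks on chromosome 22, or 2.44%, had a domain of at least 5 kb as the nearest, against 32.3% on chromosome 19. Chromosomes 7, 6 and 16 held 15, 13 and 13 of the 101 peaks beside domains of at least 20 kb.

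**Figure D5:**
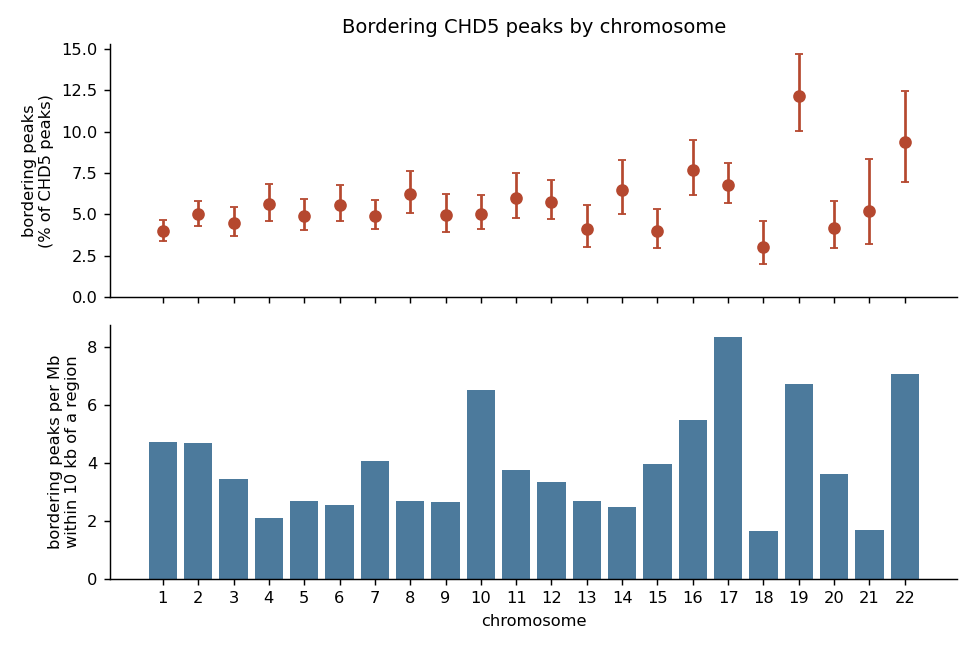
Bordering peaks as a percent of the CHD5 peaks of each autosome with Wilson 95% intervals (upper panel), and per Mb of sequence within 10 kb outside an H3K27me3 region (lower panel). Chromosome 19 is highest by share, at 12.1%, and chromosome 17 by density, at 8.33 per Mb.

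The lower score was seen on most chromosomes. Bordering peaks had the lower median score on 19 of 22 autosomes, the exceptions being chromosomes 9, 10 and 11, where the differences were 3.50, 3.85 and 0.72. The largest differences were -42.9 on chromosome 18, from 21 bordering peaks, -30.8 on chromosome 20 and -30.7 on chromosome 7. Bordering peaks had the lower median width on 21 of 22 autosomes, the exception being chromosome 10. On chromosome 7 the medians were 1978 and 2560.5 bp, a difference of -582.5 bp. Both groups were wide on that chromosome, against 1469 and 1662 bp over all autosomes.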

How the data were processed

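The CHD5 and H3K27me3 peaks were called with MACS for 1 library each, per the file headers. Coordinates refer to hg19, according to the submitters' processing notes. The score of each peak was deposited with the lists and its scale, like the MACS version, threshold, background library and aligner, is not given in the sources used here. Groups were taken from the titles. Distances count 1 for the next base. Domains were made by joining H3K27me3 regions over gaps up to 3000 bp. Densities use bases between the first and last H3K27me3 region of each autosome, split at the midpoint between neighbouring regions. Intervals are Wilson 95% for shares, exact Poisson for densities and from binomial ranks for medians. The routines matched a base-by-base count for 373 simulated peaks, and bedtools 2.31.1 also gave 1729 bordering peaks. Tables were computed in Python 3.11.15 with pandas 2.3.3, numpy 2.4.6 and scipy 1.17.1, and drawn with matplotlib 3.10.9.

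Named positions are the 10 highest scores, the 5 highest in gaps, the 2 highest per domain class, the 5 domains with most bordering peaks (7 with ties) and the 3 peaks on either side of each limit. Peaks of the domain on chromosome 12 beyond the highest, the runs and the chromosomes named were chosen after their values were seen. The members and lists were chosen with earlier results of these data known. Only an annotation of another build was at hand, so gene names, gene starts, sequence and gene lists were not analysed here.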

Additional observations from a re-analysis of the deposited data

How the results depend on the processing

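Each profile is 1 library, so nothing here separates the cells from the library, and the limits of 10 kb and 3 kb are conventions. No paired analysis was possible because each group has 1 library, and no library could be left out. Of 37 values under other settings, 16 stayed within the interval of the reported value and 21 moved beyond it. No difference among them turned in sign, although 1 had an interval that includes 0. The split by quartiles of width is not among the 37. There the score difference was positive in the narrowest and second quartiles, at 1.105 and 4.06, and negative in the third and widest. The share of bordering peaks was 3.26% with H3K27me3 scores at or above the median, 4.54% with CHD5 scores at or above the median and 3.27% with a limit of 5000 bp, against 5.36%. The share in gaps was 2.18% with the higher CHD5 scores and 5.02% at 5000 bp, against 3.07%. It was 0% when gaps up to 1000 bp were joined, since the shortest gap with a peak measured 1561 bp, and 7.40% for 5000 bp. The share beside domains of at least 20 kb was 7.58% at a limit of 5000 bp, 0.983% when joining gaps up to 1000 bp and 10.9% when joining up to 5000 bp, against 5.84%. The score difference was -27.4 with the higher CHD5 scores, -10.1 against peaks 10 to 50 kb away and -2.59 (-8.49 to 2.88) among peaks between the quartiles of width, against -16.9. The width difference was -256 bp with the higher CHD5 scores, -238 bp at 5000 bp and -131 bp against peaks 10 to 50 kb away, against -193 bp. The share with a neighbour within 10 kb was 26.7% with the higher CHD5 scores, against 39.6%. The share of the other peaks under that setting is not given here, so the 2 groups cannot be compared there. The share of domains with peaks at both edges was 0.0651% with the higher CHD5 scores and 0.124% at 5000 bp, 0.130% when joining up to 1000 bp and 0.399% when joining up to 5000 bp, against 0.308%. Apart from the value of 0% in gaps, which follows from the shortest gap with a peak, causes were not tested. The density outside domains of at least 50 kb stayed within its interval in 22 of 22 runs without 1 chromosome, which were chosen after the data were examined. At least 25 of its 32 peaks remained in each run, so a move beyond so wide an interval was unlikely. The length of the gaps joined, which defines these domains, was not varied for this density. Planned results on sequence and genes were not run.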
